A study of Mus musculus with 4 samples.

Results

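A set of 10 genes of the contractile apparatus and of vascular mural cells was followed in bone marrow stromal cells of mice with and without a myeloproliferative neoplasm (MPN). They were Acta2, Myl9, Tagln, Cald1, Cnn1, Tpm1 and Tpm2, which encode parts or regulators of the actin and myosin machinery, and Abcc9, Kcnj8 and Rgs5, which are used to recognise pericytes. The genes were taken from a fixed list, and each of the 10 had 1 probe set with a single gene symbol among 19938 genes measured. The cells had been sorted from marrow of C57BL/6 mice 10 weeks after transplantation as CD45-, CD31- and Ter119- cells with a green fluorescent reporter driven by the nestin promoter (Nes-gfp). The MPN group (n = 3 arrays) had received marrow cells carrying Mx1-cre and a mutant JAK2 allele, and the control (n = 1 array) had received control marrow cells. All 4 hosts carried Nes-gfp. Mx1-cre is active in blood cells and in other cells that respond to interferon, and the nestin reporter marks cells by promoter activity, not by a surface protein. Age, sex and pooling of animals were not given in the sources used here, and each array was taken as 1 mouse as the titles name it.

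Pericytes wrap capillaries and smooth muscle cells wrap larger vessels, and together they are called mural cells. Smooth muscle contracts when myosin light chain is phosphorylated and myosin pulls on actin filaments, whose access is set by tropomyosin, caldesmon, calponin and transgelin. Many of these genes are switched on through serum response factor (SRF), which binds a DNA element called the CArG box, a run of A and T letters between CC and GG. In marrow, cells with nestin reporter activity lie around vessels and are known as a source of signals for blood stem cells.

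Expression is given as the deposited log2 value, so that 1 unit is a 2-fold difference. A background limit of 5.21 was used, the 95th percentile of 1190 olfactory and vomeronasal receptor genes that marrow is not known to use. Of the 10 genes, 8 had a mean above it in at least 1 group, as did 60% of all genes, and Tagln and Cnn1 did not. Over all genes the median difference between MPN and control was 0.18, and the receptor genes lay 0.26 higher on the MPN arrays. Pearson's r across genes was 0.87 to 0.89 between MPN arrays and 0.80 to 0.87 between an MPN array and the control, as a description only. Xist, which silences an X chromosome, was at 8.37, 9.31 and 9.22 in the MPN mice and 3.30 in the control, and the Y-linked Kdm5d was at 4.16, 4.16 and 4.14 against 7.72. The levels of these sex-linked genes therefore followed the groups, and sex and group cannot be told apart.

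The label of contractile mural cells was checked first against the genes that define smooth muscle. Acta2, Tagln and Cnn1 were at 4.93, 4.67 and 4.71 on the control array, all under the background limit. Myh11, the smooth muscle myosin heavy chain, was at 5.58 there and Des, the intermediate filament desmin, at 5.24. Of the pericyte markers, Cspg4 (NG2) was at 5.29, Mcam at 6.02 and Notch3 at 5.98, while Pdgfrb, the receptor for platelet-derived growth factor, was at 8.68. The control array thus showed a clear signal for Pdgfrb, Abcc9, Rgs5, Cald1, Tpm1, Tpm2 and Myl9, and the defining smooth muscle genes were at or near background. For this reason the 10 are called contractile and pericyte genes here, without a claim that smooth muscle cells were in the sort. Nes itself was at 4.56, 3.92 and 4.26 in the MPN mice and 4.26 in the control, under the limit on each array.

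The promoters of Acta2 and Myl9 are shown because they were the only members whose windows held a CArG box or a form with 1 G or C among its middle letters. The windows run from 250 bases before to 50 after the start of the gene, in RefSeq's GRCm38.p6, and 9 of the 10 genes had one, Cald1 with more than 1. Tagln had no window, so its promoter was not searched. The Acta2 window is chr19:34255324-34255623 on the minus strand, and the Myl9 window is chr2:156775214-156775513 on the plus strand. Each is written 5′ to 3′ with the boxes in capitals.
Acta2: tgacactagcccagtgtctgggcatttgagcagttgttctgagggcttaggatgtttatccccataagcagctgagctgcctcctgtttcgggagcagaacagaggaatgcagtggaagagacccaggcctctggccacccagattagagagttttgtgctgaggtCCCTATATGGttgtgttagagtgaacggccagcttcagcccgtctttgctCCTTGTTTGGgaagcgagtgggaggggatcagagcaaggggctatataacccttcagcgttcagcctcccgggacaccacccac
Myl9: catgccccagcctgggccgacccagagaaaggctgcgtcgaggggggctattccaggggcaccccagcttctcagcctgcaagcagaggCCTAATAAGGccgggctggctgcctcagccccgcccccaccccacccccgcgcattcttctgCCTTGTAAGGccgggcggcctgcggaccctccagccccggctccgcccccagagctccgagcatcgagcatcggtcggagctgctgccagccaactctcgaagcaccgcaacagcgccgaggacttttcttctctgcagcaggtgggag
The Myl9 window held the CArG box CCTAATAAGG at bases 90 to 99 and CCTTGTAAGG, with 1 G in the middle, at bases 152 to 161, counted from the 5′ end of the window. The Acta2 window held CCCTATATGG at bases 167 to 176 and CCTTGTTTGG at bases 217 to 226, each with 1 G or C in the middle. The box reads as the same pattern on both strands. Of 32851 windows of this length, 1.63% held a CArG box and 9.98% held it or the form with 1 G or C. A match of letters is a description of the sequence and not of binding.

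On the arrays the 10 genes divided into 6 that lay well below the control in each MPN mouse and 4 that lay near it. Cald1, Myl9, Rgs5, Tpm1, Tpm2 and Abcc9 were lower by 1.64 to 2.92 log2 units, or 3.13-fold to 7.57-fold. Acta2, Kcnj8, Cnn1 and Tagln differed from the control by 0.57, 0.19, 0.18 and -0.12. The 6 were the genes with a control value of at least 6.87, and the other 4 had control values of at most 5.55. RNA of sorted cells was measured in bulk, so fewer cells that use a gene and less of its RNA per cell cannot be told apart.

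Groups were compared with limma's moderated test, adjusted over all genes. At an adjusted p of 0.05, 0 of the 10 genes passed, and of all 19938 genes 0% passed as lower and 0% as higher. The smallest adjusted p among the 10 was 0.087, for Myl9. The test draws its spread from the MPN arrays alone, with 2 residual degrees of freedom, and takes the lone control to vary as they do. At an unadjusted p under 0.05, 6 of the 10 were lower and 1 was higher, against 8.63% and 3.97% of all genes. On each MPN array 6 of the 10 lay below the control and 1 lay above it, against 21.1% and 46.8% of all genes.

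In size alone, 6 of the 10 were at least 2-fold lower than the control on each MPN array, against 5.78% of all genes, and 0 were 2-fold higher, against 1.13%. Genes under background can hardly be 2-fold lower. Among genes above background in at least 1 group, 6 of 8 members and 1120 of 11964 genes were 2-fold lower. Myl9 and Rgs5, with MPN means of 4.90 and 4.72, passed this filter only through the control, where they are high. Acta2 passed it only through the MPN arrays. The filter thus depends on the differences themselves, and the share gives no added support. The members' counts were 6 and 0 without any 1 MPN mouse as well. Over all genes the count lower was 1153, and 1756 without MPN mouse 3, and the count higher was 225, and 378, 373 and 378 without MPN mouse 1, 2 or 3. The genes were chosen with earlier results of these data known, so these shares describe the list.

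**Figure D1:**
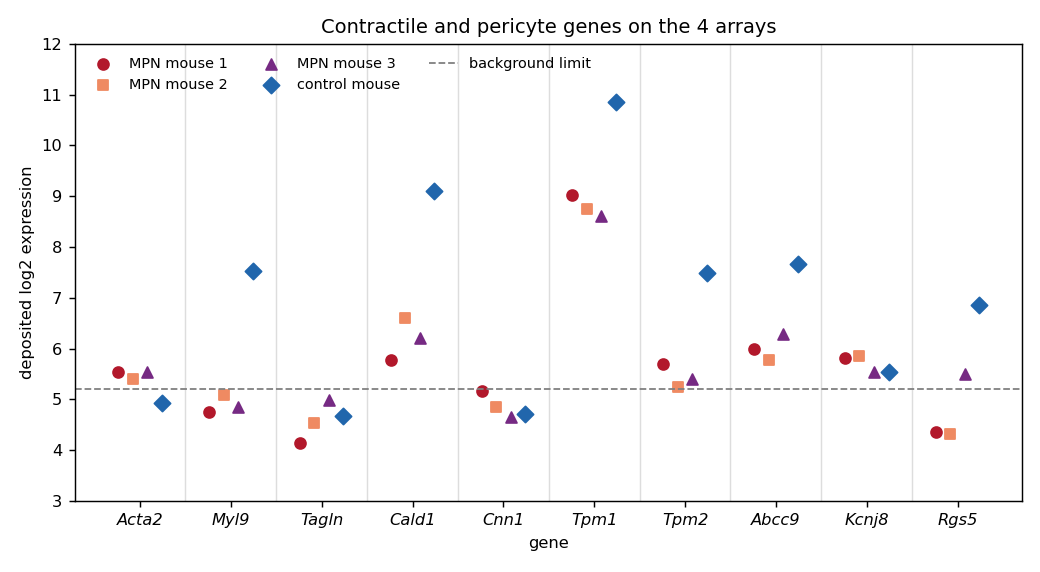
Deposited log2 expression (vertical axis) of the 10 genes (horizontal axis) on the 3 MPN arrays and the control array; each point is 1 array and the dashed line is the background limit of 5.21. The control lies above all MPN arrays for Myl9, Cald1, Tpm1, Tpm2, Abcc9 and Rgs5, and below them for Acta2.

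Acta2, alpha smooth muscle actin, is the filament protein by which smooth muscle cells and myofibroblasts are recognised. It was at 5.54, 5.40 and 5.54 on MPN arrays 1, 2 and 3 and at 4.93 on the control. The MPN arrays lay above the control without overlap, by 0.57 (SE 0.16, limma adjusted p = 0.34), a 1.48-fold difference close to the limit of background. The standard error (SE) is that of the limma fit. Its unadjusted 95% interval was 0.09 to 1.04. Actg2, the enteric smooth muscle actin, was at 5.49, 5.45 and 5.45 against 5.06, and the distance of Acta2 from it was 0.17 ± 0.07 (SD, n = 3). Actins are near identical in sequence, and whether probes of one read another was not tested. The skeletal and cardiac actins Acta1 and Actc1 were higher by 0.82 (SE 0.35) and 0.66 (SE 0.26), and Actb, the actin of all cells, by 0.42 (SE 0.21). Each of these 5 actins was above the control on each MPN array, which 46.8% of all genes were, and none changed sign under the 10 alternative settings tried.

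Myl9, the regulatory light chain of smooth muscle and non-muscle myosin, was at 4.76, 5.09 and 4.85 in the MPN mice and at 7.53 in the control. All MPN values lay under the background limit and the control lay well above it. The difference was -2.63 (SE 0.21, limma adjusted p = 0.087), a 6.19-fold lower value whose size depends on where background lies. Its place among all genes was percentile 1.56 from the lowest difference. Myl12a and Myl12b, the closely related light chains of non-muscle cells, were at -0.18 (SE 0.33) and 0.37 (SE 0.31). Set against Myl12a on the same array, Myl9 stood at -2.21, -2.51 and -2.63, and against Myl12b at -3.18, -3.10 and -2.72. The sign for Myl12a turned to 0.01 without MPN mouse 1. Myl6, the essential light chain, was at -0.30 (SE 0.22). With 4 arrays in groups of 3 and 1, an exact permutation test of such a contrast cannot give a one-sided p below 0.25, so contrasts between 2 genes are descriptions.

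Mylk, the kinase that phosphorylates the light chain, followed Myl9 in sign. It was at 5.99, 5.99 and 5.75 in the MPN mice and 7.40 in the control, a difference of -1.49 (SE 0.19, limma adjusted p = 0.14). Of the phosphatase subunits that reverse this step, Ppp1r12a was at 0.26 (SE 0.18) and Ppp1r12b at 0.05 (SE 0.27), and the latter was at -0.79 as the mean of its probe sets. Ppp1r14a, an inhibitor of the same phosphatase, was at 6.75, 6.26 and 5.82 against 5.21, higher by 1.07 (SE 0.44, limma adjusted p = 0.43). Its MPN values did not overlap the control but were spread widely.

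Cald1, caldesmon, binds actin and tropomyosin and holds back myosin. It had the largest difference of the 10, with 5.77, 6.60 and 6.21 in the MPN mice and 9.11 in the control. That is -2.92 (SE 0.40, limma adjusted p = 0.15), or 7.57-fold lower, at percentile 1.06 of all genes, and all 4 values lay above background. Tagln, transgelin, also called SM22, is an actin-bundling protein of smooth muscle. It was at 4.14, 4.53 and 4.98 in the MPN mice and 4.67 in the control, which lay within the MPN range. The difference of -0.12 (SE 0.40) had an unadjusted 95% interval of -1.31 to 1.07, which includes a 2-fold difference in either direction. Its relative Tagln2, found in many blood and stromal cells, was at 7.69, 6.74 and 7.99 against 6.65, and Tagln3 was at 0.05 (SE 0.15).

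Cnn1, the calponin of smooth muscle, was at 5.17, 4.85 and 4.65 in the MPN mice and 4.71 in the control, with all 4 values under the background limit. The groups overlapped, and the difference was 0.18 (SE 0.27, unadjusted 95% interval -0.64 to 0.99), with the opposite sign under 2 alternative settings. The other calponins are used more widely and lay lower on the MPN arrays. Cnn2 was at 5.50, 5.29 and 5.93 against 6.94 (-1.37, SE 0.32, limma adjusted p = 0.27), and Cnn3 was at -0.74 (SE 0.35). On each MPN array Cnn1 stood above Cnn2 in its difference from the control, by 1.54 ± 0.52 (SD, n = 3).

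The tropomyosins wind along the actin filament and set where myosin can bind. Tpm1 was at 9.02, 8.75 and 8.61 in the MPN mice and 10.85 in the control, lower by -2.06 (SE 0.24, limma adjusted p = 0.13), or 4.17-fold. Tpm2 was at 5.69, 5.25 and 5.41 against 7.48, lower by -2.04 (SE 0.24, limma adjusted p = 0.13), or 4.10-fold. The control stood apart from the MPN arrays for both, and Tpm1 was far above background on all 4 arrays. Of the 45 pairs among the 10 genes, Tpm1 and Tpm2 had the most similar pattern, with a root mean square distance of 0.13 log2 units over the 3 differences. The other tropomyosin genes gave other values. Tpm3 was at 11.21, 10.34 and 11.43 against 10.64 (0.36, SE 0.53), and Tpm4, a form found in platelets and other blood cells, was at 8.93, 9.62 and 8.97 against 9.30 (-0.13, SE 0.37). The control lay within the MPN range for both Tpm3 and Tpm4, and Tpm3 turned to -0.02 after repeated quantile normalisation. Within each array Tpm1 was lower than Tpm3 in its difference, by -2.41, -1.81 and -3.04, and lower than Tpm4 by -1.47, -2.42 and -1.92.

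**Figure D2:**
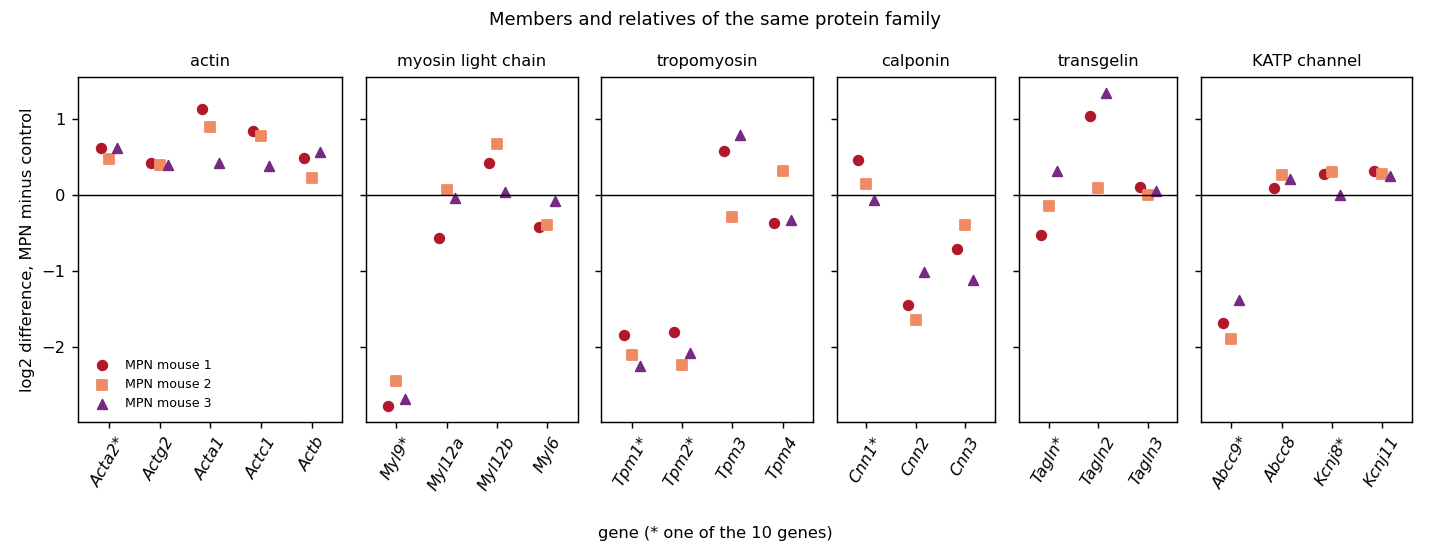
Difference of each MPN array from the control in log2 units (vertical axis) for members, marked with an asterisk, and other genes of the same protein families (horizontal axis, 1 panel a family); each point is 1 MPN array. Myl9, Tpm1, Tpm2 and Abcc9 lie between -1.37 and -2.77 on every array. The points of Myl12a, Myl12b, Tpm3, Tpm4 and Abcc8 lie within 1 log2 unit of 0, where Myl12a, Tpm3 and Abcc8 change sign under 1 alternative setting each. Abcc8 was close to background, at 5.49 on the control, so a lower level could hardly be seen.

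Abcc9 and Kcnj8 encode the parts of one ion channel. Abcc9 is the sulfonylurea receptor SUR2 and Kcnj8 the pore Kir6.1 of the ATP-sensitive potassium channel of pericytes and vascular smooth muscle, and no protein-coding gene lies between them on chromosome 6. Abcc9 was at 5.99, 5.78 and 6.29 in the MPN mice and 7.67 in the control, a difference of -1.64 (SE 0.27, limma adjusted p = 0.18), or 3.13-fold lower. Kcnj8 was at 5.82, 5.85 and 5.55 against 5.55, a difference of 0.19 (SE 0.21, unadjusted 95% interval -0.43 to 0.81). The control stood clear of the MPN arrays for Abcc9, and for Kcnj8 it equalled MPN array 3. On the same arrays Abcc9 lay below Kcnj8 in its difference by -1.94, -2.19 and -1.37. Kcnj8 was within 1 log2 unit of the background limit on all 4 arrays, a range in which a lower level is hard to measure. The subunits of the related channel of pancreas and neurons, Abcc8 and Kcnj11, were at 0.19 (SE 0.16) and 0.28 (SE 0.15). Their control values of 5.49 and 5.28 were also close to the background limit, so a lower level could hardly be seen. A shift of the arrays to equal receptor gene medians turned Kcnj8 to -0.06 and Abcc8 to -0.07.

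Rgs5 is a GTPase-activating protein that shortens signalling from G protein-coupled receptors and is a widely used pericyte marker. It was at 4.36, 4.31 and 5.50 in the MPN mice and 6.87 in the control. The difference was -2.14 (SE 0.62, limma adjusted p = 0.35), or 4.41-fold lower, and MPN mouse 3 lay apart from the other MPN mice. The MPN SD of 0.68 was the widest of the 10 genes. Only the control and MPN array 3 were above background, so the size of the difference is uncertain. Rgs4, its neighbour on chromosome 1 with no protein-coding gene between, was under the limit in both groups and at -0.42 (SE 0.17). Of 15 other RGS genes measured, 0 were at least 2-fold lower on each MPN array (5.78% of all genes were) and 1 was 2-fold higher (1.13% of all genes were), a count that became 0 under cyclic loess and under equal receptor gene medians. That gene was Rgs2, at 9.60, 9.06 and 9.37 against 7.83 (1.51, SE 0.28, limma adjusted p = 0.21). Rgs1, a gene of activated leukocytes, was at 5.24, 5.61 and 7.30 against 4.85, and Rgs14 was at 0.88 (SE 0.16).

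**Figure D3:**
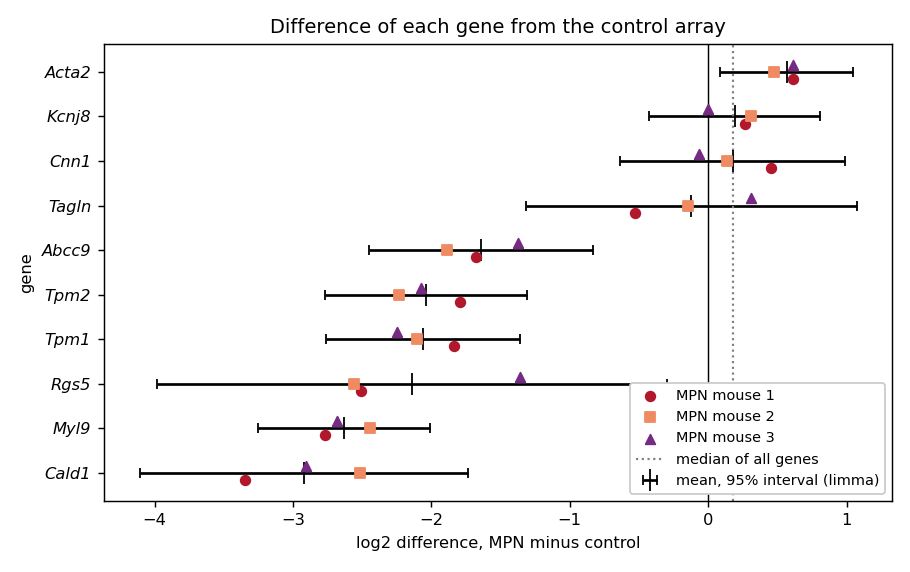
Log2 difference from the control (horizontal axis) for the 10 genes (vertical axis), with 1 point for each MPN array, a black tick for the mean and a bar for the unadjusted 95% interval of the limma fit; the dotted line is the median of all genes, 0.18. The intervals of 6 genes lie below 0, that of Acta2 lies above 0, and those of Kcnj8, Cnn1 and Tagln include 0.

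By similarity over the 3 differences, Myl9 and Cald1 were each other's nearest members, at a distance of 0.36 log2 units. Cnn1 and Kcnj8 were 0.15 apart, with both near 0, and Acta2 was nearest to Kcnj8 at 0.42. Abcc9 and Rgs5 were both nearest to Tpm2, at 0.46 and 0.61. The pair farthest apart was Acta2 and Cald1, at 3.51. These distances rest on 4 arrays that share 1 control and are descriptions.

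Related genes were read from 6 lists, of which 94 of 101 genes were measured. Of 19 other smooth muscle contractile genes, 14 were above background, 1 was at least 2-fold lower on each MPN array and 0 were 2-fold higher (1 without MPN mouse 3), with a median difference of 0.13. That is close to the shares of all genes, 5.78% lower and 1.13% higher. The lower one was Mylk, described above, and the largest of the others were Ppp1r14a and Lmod1, a leiomodin of smooth muscle at 0.51 (SE 0.28). Myh11 was at 5.81, 5.68 and 5.81 against 5.58 (0.18, SE 0.16), and Des was at 5.24, 5.89 and 4.95 against 5.24 (0.12, SE 0.45), and the sign of both depends on the scaling. Among 18 relatives that most cells use, 2 were 2-fold lower on each array and 0 higher (1 without MPN mouse 2), with a median of -0.05. The 2 lower became 0 after repeated quantile normalisation and 1 with the arrays shifted to one median. Those were Cnn2 and Actn1, the actin cross-linker alpha-actinin, which was at 5.82, 5.25 and 6.75 against 7.88 (-1.94, SE 0.69, limma adjusted p = 0.41). Actn4, another alpha-actinin, was at 6.94, 7.77 and 7.83 against 8.39 (-0.88, SE 0.46). In these lists, as over all genes, 0 passed the adjusted threshold in limma, and 1 gene of each list was lower at an unadjusted p under 0.05, no larger a share than the 8.63% of all genes.

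Control of the contractile genes by SRF and RhoA was read from 12 genes, with a median difference of -0.07. Of the 12, 3 were 2-fold lower on each array, against 5.78% of all genes, and the 3 became 2 after repeated quantile normalisation. Srf itself was at 5.85, 5.71 and 5.74 against 5.77, and its muscle co-activator Myocd was under background in both groups. Of its targets, Ccn2, a matricellular growth factor, was at 6.72, 7.05 and 6.85 against 8.86 (-1.99, SE 0.21, limma adjusted p = 0.11). Ccn1, its relative, was at 7.87, 6.04 and 7.09 against 9.57 (-2.57, SE 0.82, limma adjusted p = 0.38). Fhl2, a co-factor of SRF, was the third, at -1.37 (SE 0.34, limma adjusted p = 0.29). The MPN arrays did not reach the control for these 3 genes.

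Other pericyte markers gave values on both sides of the control. Of 18 measured, 5 were at least 2-fold lower on each array and 0 higher, against 5.78% and 1.13% of all genes. Their median was -0.05, and the 5 lower became 4 after repeated quantile normalisation. Pdgfrb, which pericytes need for recruitment to vessels, was at 6.31, 5.34 and 5.14 against 8.68, a difference of -3.09 (SE 0.57, limma adjusted p = 0.20). S1pr3, a receptor for sphingosine 1-phosphate, was at 4.98, 6.90 and 5.31 against 8.48 (-2.76, SE 0.92, limma adjusted p = 0.40). Pde5a, the phosphodiesterase that degrades cyclic GMP, was at 4.04, 4.00 and 3.71 against 5.94 (-2.02, SE 0.22, limma adjusted p = 0.11). All MPN values of Pde5a lay under the background limit, so the size of its difference is uncertain. The other 2, named after their values were seen, were Foxc2 (-1.71, SE 0.35) and Gucy1a1, a subunit of the enzyme that makes cyclic GMP (-1.28, SE 0.18). The capillary pericyte markers Higd1b and Ndufa4l2 were at 0.73 (SE 0.25) and 0.41 (SE 0.30). Their control values of 3.61 and 5.25 lay under or at the background limit, so a lower level could hardly be seen. Of the 18 markers, 7 were below the control on each MPN array and 3 above it.

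The 12 channels and receptors of vascular tone had a median of 0.15, and 6 were above background. On each array 2 were 2-fold lower and 0 higher, against 5.78% and 1.13% of all genes. Prkg1, the kinase that carries cyclic GMP signals in smooth muscle, was at 5.05, 5.10 and 5.08 against 6.58 (-1.51, SE 0.15, limma adjusted p = 0.10). All MPN values of Prkg1 lay under the background limit, so the size of its difference is uncertain. Atp2a2, the calcium pump of the sarcoplasmic and endoplasmic reticulum, was at 7.75, 6.20 and 8.28 against 9.32 (-1.91, SE 0.97, limma adjusted p = 0.46). The unadjusted 95% interval of Atp2a2 was -4.81 to 0.99. Ednrb, an endothelin receptor, was under background in both groups, at 0.81 (SE 0.15).

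**Figure D4:**
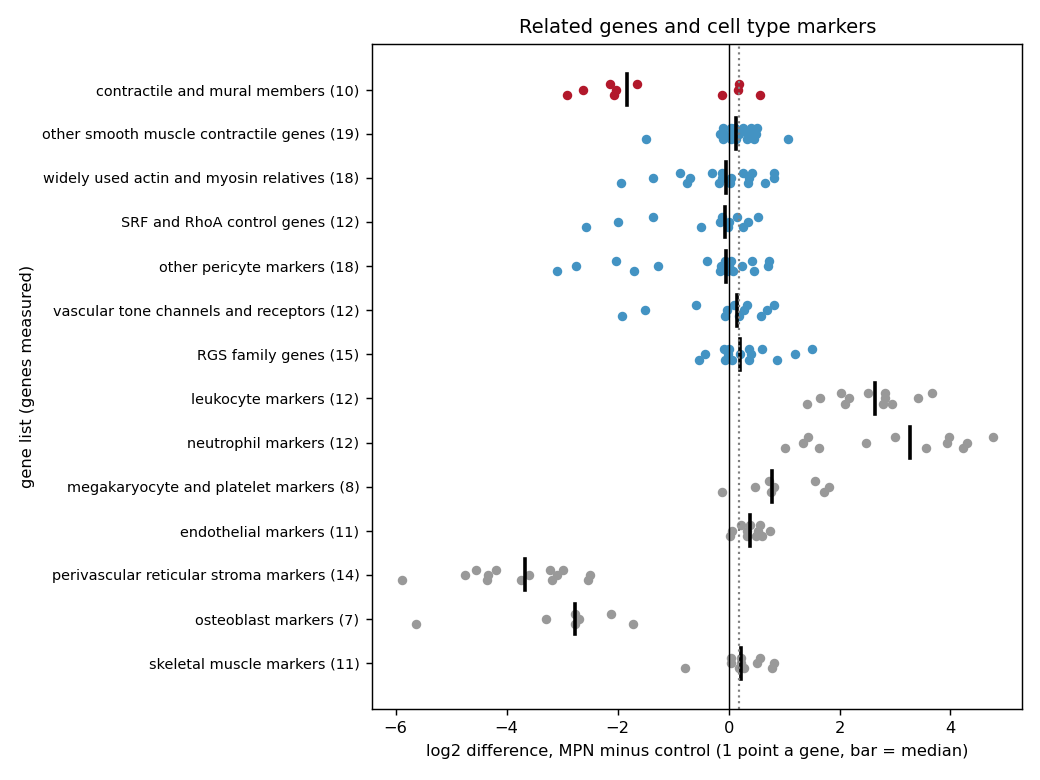
Log2 difference from the control (horizontal axis) of each gene in the 10-gene list, the 6 lists of related genes and the 7 lists of cell type markers (vertical axis, with the number measured); each point is 1 gene and each bar the median. Of the 10 genes 6 lie between -2.92 and -1.64 and 4 between -0.12 and 0.57, while all markers of reticular stroma lie below 0 and all leukocyte markers above it.

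Markers of the other cell types in marrow were read on the same arrays. Of all genes, 5.78% were at least 2-fold lower on each MPN array and 1.13% were 2-fold higher. All 14 markers of perivascular reticular stroma were at least 2-fold lower on each MPN array, with a median of -3.66, and their mean level was 6.04, 5.29 and 6.09 against 9.59. Kitl, Adipoq and Lum led that list, at -5.89 (SE 0.35), -4.76 (SE 1.06) and -4.55 (SE 0.90). All 7 osteoblast markers measured were 2-fold lower as well, with a median of -2.77 and Phex, Col1a2 and Col1a1 in front, at -5.64 (SE 0.25), -3.30 (SE 0.41) and -2.78 (SE 0.18). The leukocyte list went the other way. Of its 12 markers, 9 were 2-fold higher on each array, with a mean level of 9.21, 8.55 and 9.52 against 6.56, led by Cd53 at 3.67 (SE 0.89), Cd52 at 3.42 (SE 0.32) and Ptprc, the gene of CD45, at 2.94 (SE 0.46). Of 12 neutrophil markers 10 were 2-fold higher, with a mean of 10.68, 9.76 and 10.80 against 7.44, led by Mmp8 at 4.77 (SE 0.41), Ly6g at 4.31 (SE 0.87) and Lcn2 at 4.23 (SE 0.75). The part of these shifts in the differences of the 10 genes was not tested.

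Cell types that could bring contractile RNA of their own were also read. The 8 megakaryocyte and platelet markers measured had a mean level of 5.58, 6.67 and 5.80 in the MPN mice and 5.05 in the control, and 0 were 2-fold apart on each array in either direction (2 were higher without MPN mouse 1 and 1 without MPN mouse 3). Pf4 was at 6.29, 8.35 and 5.89 against 5.03, Ppbp at 4.95, 7.82 and 7.78 against 5.13, and Clec1b at 4.55, 6.67 and 4.78 against 3.77. Skeletal muscle markers (11 genes) had a mean of 5.53, 5.62 and 5.33 against 5.22, with Acta1 at 0.82, Myog at 0.79 (SE 0.38) and Myl1 at -0.78 (SE 0.20) the largest. Endothelial markers (11 genes) had a mean of 5.05, 5.05 and 4.86 against 4.60, near background throughout, with Erg, Pecam1 and Ptprb at 0.74 (SE 0.28), 0.60 (SE 0.39) and 0.57 (SE 0.18). None of the 3 lists was lower on the MPN arrays in its mean.

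Both Acta2 and Kcnj8 held the same deposited value on a pair of arrays, as did 12.7% of all genes. For Acta2 these were MPN arrays 1 and 3, and for Kcnj8 MPN array 3 and the control. In Acta2 the tie lies among the MPN arrays, whose SD of 0.08 enters its SE. The limma fit combines that spread with the spread over all genes, so the tie alone does not set the SE.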

How the data were processed

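RNA isolation used a Picopure kit, and NuGEN Ovation amplified it before it was hybridised to Affymetrix mouse gene arrays, per the labels' protocols and series design. The authors made the deposited log2 values with RMA, per the submitters' processing notes. RMA corrects background, quantile-normalises arrays and summarises probes, and it compresses differences near background. Its version and the build: not given in the sources used here. Arrays have no read depth, so precision rests on their number.

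Of 35556 probe sets, 21789 had 1 gene symbol, 1621 several, and 12146 are unnamed here. RefSeq (GRCm38.p6) held 21698 by gene identifier. For each gene the probe set with the highest mean was kept. The test was limma 3.58.1 under R 4.3.3 (lmFit, eBayes with a prior of 1.39 degrees of freedom, two-sided), with Benjamini-Hochberg adjustment, and the steps were tested on simulated data. Members and lists were chosen with earlier results of these data known. Named beside the members were the 3 largest absolute differences of each list and the genes of the sort; all other genes named, among them family relatives, other genes of the lists, sex-linked genes and genes that check the label, were added after their values were seen. The 10 alternatives left out each MPN mouse, averaged probe sets, kept genes above background, repeated quantile normalisation, applied cyclic loess, equalised the medians of all probe sets or of receptor genes, or used a mean-dependent variance prior.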

Additional observations from a re-analysis of the deposited data

How the results depend on the processing

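The 6 lower genes kept their sign under all 10 alternatives and stayed at least 2-fold lower on each MPN array used, and Acta2 kept its sign, at 0.31 to 0.61. The differences ran from -3.18 to -2.71 for Cald1, -2.89 to -2.41 for Myl9, -2.53 to -1.93 for Rgs5, -2.35 to -1.97 for Tpm1, -2.29 to -1.80 for Tpm2 and -1.90 to -1.40 for Abcc9. Giving the receptor genes an equal median on every array, which moved the median of all genes from 0.18 to -0.08, took Myl9 past the threshold (limma adjusted p = 0.0477; range over its alternatives 0.0477 to 0.454), so that 1 of the 10 genes passed. The same setting reversed Cnn1 to -0.0807 and Kcnj8 to -0.0649 and gave 153 genes past the threshold. Cyclic loess reversed Cnn1 to -0.0248 and gave 97 genes past the threshold, 0 of them among the 10. Tagln was at -0.336 to 0.0829 when 1 MPN mouse was left out, with the reversed sign without mouse 1. The cause of these changes was not tested. Without 1 MPN mouse, 1312 to 1756 genes were 2-fold lower on each array and 373 to 378 were 2-fold higher, with 1756 lower without MPN mouse 3. Among genes above background, Tagln and Cnn1 were left out. No paired analysis was possible because the control is a single array, and the control could not be left out. Differences of genes under background in 1 group, such as Myl9 and Rgs5, have an uncertain size.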
